A study of Mus musculus with 6 samples.

Results

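The genes that drive the cell division cycle were examined in the accessible chromatin of Ezh2-null mouse fibroblasts. The set held 44 genes, chosen by name from the cyclin, Cdk, Cdc, Mcm and Orc families with Cdt1, Gmnn, Pcna, Plk1, Aurka and Aurkb, out of 21887 protein-coding genes placed on the mouse build mm10. The study profiled 1 line of embryonic fibroblasts immortalized with c-myc, called line A or C2, in 3 groups of 2 samples: wild-type cells, Ezh2 -/- cells, and Ezh2 -/- cells rescued with a retroviral pMSCV-Ezh2 vector. All 3 groups thus carry the c-myc immortalization, and the cells stem from 1 line. Ezh2 is the enzyme of Polycomb repressive complex 2 that methylates lysine 27 of histone H3. ATAC-seq marks open chromatin by the insertion of adapters by a transposase. The values below come from 1 peak list of the Ezh2 -/- cells, in which each row is an accessible interval. Cells were transposed whole and not as nuclei. Wild-type and rescued samples are not analysed here, and no value below compares genotypes. The list holds no value per replicate and no read count, so no replicate error, test or depth could be given, and every comparison below is a description of this list.

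Cyclins are regulatory subunits that switch on cyclin-dependent kinases (CDKs). D-type cyclins with Cdk4 or Cdk6, and E-type cyclins with Cdk2, act in G1 by phosphorylating the retinoblastoma protein, which frees E2F factors to switch on the genes of S phase. Replication origins are licensed when the origin recognition complex, Cdc6 and Cdt1 load the Mcm2-7 helicase, and A- and B-type cyclins with Cdk1, and the Plk1 and Aurora kinases, then carry the cell through mitosis. Late cell cycle promoters are known for CCAAT boxes and for the cell cycle genes homology region (CHR), which binds the DREAM and MuvB complexes.

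Nearly every gene of the set had accessible chromatin at one of its ends. An interval overlapped the 1 kb window around either end of the gene at 40 of 44 genes (90.9%), against 47.4% of all protein-coding genes. The 4 genes without one were the helicase subunit gene Mcm2, the origin recognition gene Orc1, the B-type cyclin gene Ccnb2 and the germline cyclin gene Ccna1. Orc1 did have an interval at its annotated start, which lies inside the outermost gene boundary, so that 41 genes had an interval at an end or a start. By role, an interval stood at 10 of 10 genes of G1 and entry into S phase, 13 of 15 of S phase and licensing (86.7%), 10 of 11 of G2 and mitosis (90.9%) and 7 of 8 other cyclins and CDKs (87.5%). The 4 groups therefore differed by at most 2 genes without an interval.

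**Figure D1:**
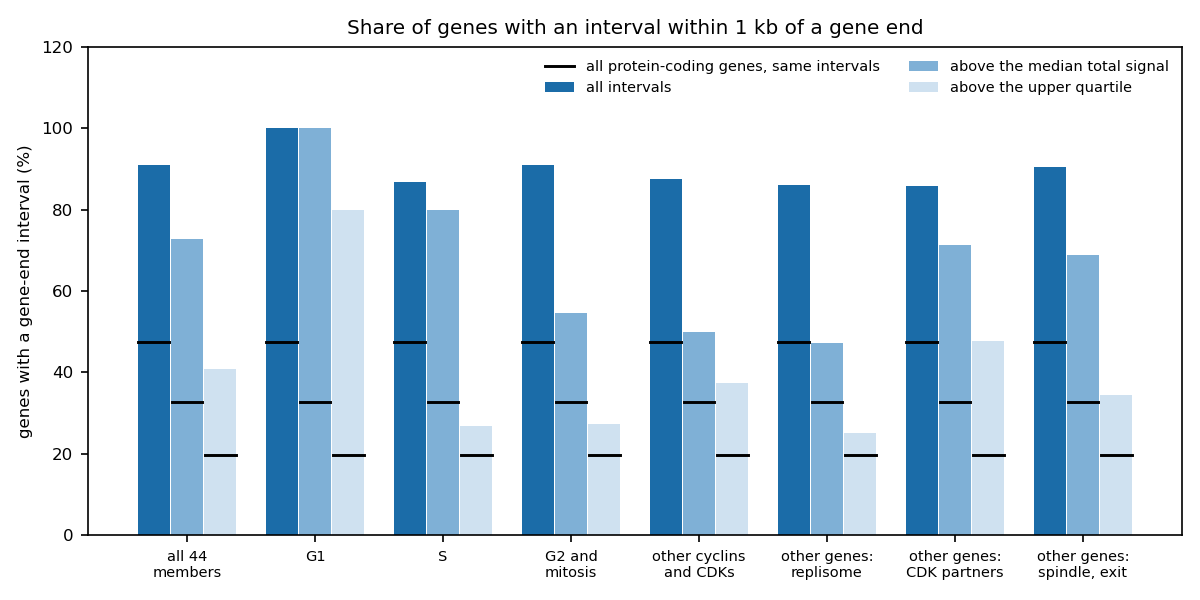
Bars give the percentage of genes with an interval within 1 kb of a gene end, for all 44 genes, their 4 role groups and 3 lists of other cell cycle genes, with all intervals and with called regions above the median and upper quartile of total signal. Black lines give the same share of all protein-coding genes (47.4%, 32.7% and 19.6%), and the G1 genes keep the highest share among the stronger regions, with 8 of 10 above the upper quartile.

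The groups separated more by the total signal of the region than by its presence. Total signal is the area under the coverage of a called region and maximum signal is its height, both in the authors' units. Called regions above the list's median total signal stood at 10 of 10 G1 genes, 12 of 15 S phase genes, 6 of 11 mitotic genes and 4 of 8 others, against 32.7% of all genes. Above the upper quartile the counts were 8 of 10, 4 of 15, 3 of 11 and 3 of 8, against 19.6%. The G1 group was thus the one with most of its genes at regions of high total signal. The S phase genes mostly lay between the median and the upper quartile. At gene ends maximum signal did not set the G1 group apart. Its medians there were 48.5 in G1, 49 in S phase, 41.5 in mitotic and 49 in other genes. At annotated starts the medians were 52, 48, 44 and 49 in the same order, over 7, 12, 7 and 5 genes.

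The base composition of the promoters went along with this high share. The promoter table, with 250 bases before to 50 after the annotated start, held entries for 34 of the 44 genes. Of these 34, 32 were CpG-rich, with an observed to expected CpG ratio of at least 0.6, against 50.9% of all genes with an entry. Among genes with a CpG-rich promoter an interval lay at a gene end of 28 of 32 cell cycle genes (87.5%) and of 73.4% of all genes. An interval lay within 1 kb of an annotated start at 29 of 32 cell cycle genes (90.6%) and at 75.2% of all genes. The other two, Mcm3 (ratio 0.45) and Mcm10 (0.54), were CpG-poor and both had an interval, as did 17.6% of all CpG-poor genes. The excess over other genes was therefore smaller within the CpG-rich class than over all genes. The part of CpG content in the result was not tested.

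Values are given below for the gene-end interval of highest total signal of each gene, and percentiles rank it among the 10378 protein-coding genes with such an interval. Width is that of the interval, while total and maximum signal are those of its whole called region, also where that region has several pieces. Medians over those genes were 2772.5 bp of width, 39334.5 of total signal and 38 of maximum signal. Over the 40 cell cycle genes the medians were 3103.5 bp, 41953 and 48.5. The maximum signal was above the median of all genes at 29 of 40, while total signal and width were above it at 23 of 40 each. The set thus stood higher than other genes in peak height and close to them in area and width.

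**Figure D2:**
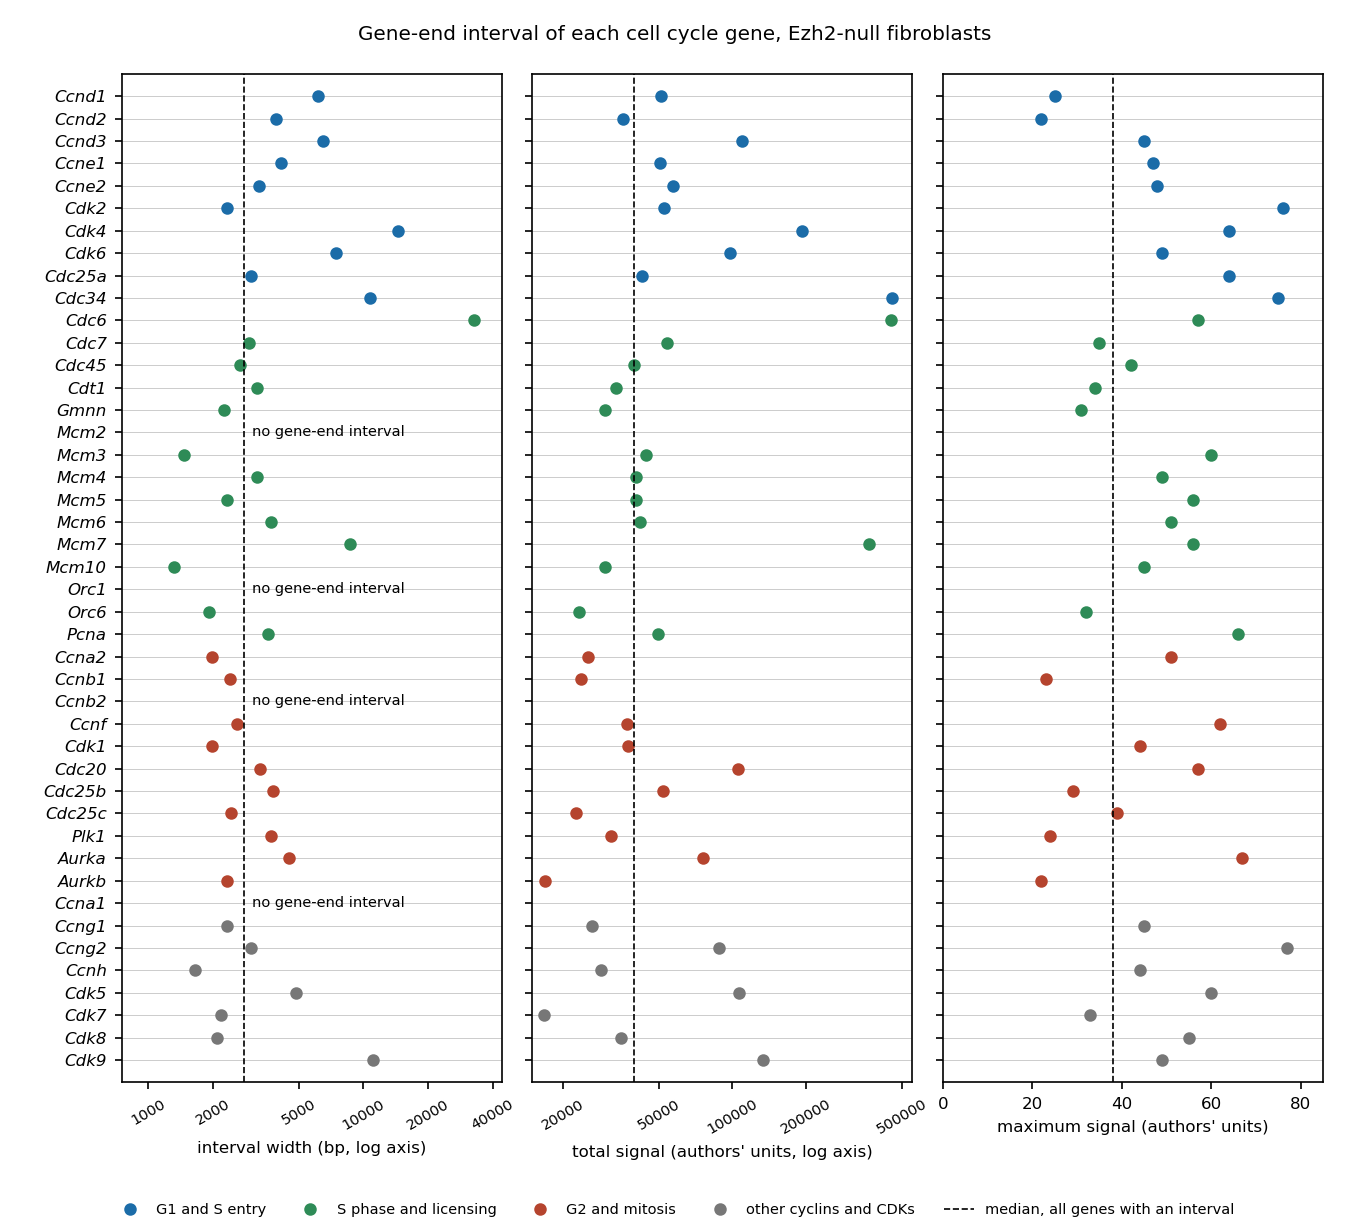
Each point is the gene-end interval of 1 gene, by width in bp, total signal (both on log axes) and maximum signal in the authors' units, coloured by role, with dashed lines at the medians of all genes with an interval (2772.5 bp, 39334.5 and 38). G1 genes lie mostly to the right of the lines in width and total signal, with 9 of 10 above each. In maximum signal G1 genes are spread from 22 to 76 and mitotic genes from 22 to 67.

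Among the G1 genes the 3 D-type cyclin genes had wide and mostly low intervals. Ccnd1 had an interval of 6176 bp (chromosome 7, 144933808 to 144939983) that spanned its upper end, with 50801 of total signal and a maximum of only 25, percentile 17.9. Ccnd2 had 1 of 3911 bp (chromosome 6, 127148419 to 127152329), with a total of 35640 and a maximum of 22, percentile 12.3. Ccnd3 stood apart from both, with an interval of 6521 bp (chromosome 17, 47593048 to 47599568) shared with Bysl, a total of 109636 and a maximum of 45. All 3 were wider than the median gene, at percentiles 89.6, 74.1 and 90.8, but at Ccnd1 and Ccnd2 the height was among the lowest of the set. A second piece of open chromatin of 1483 bp lay 875 bp beyond the upper end of Ccnd1, part of another called region with a total of 34326 and a maximum of 33. Ccnd3 also had an interval of 3882 bp at its lower end, at its other annotated start, shared with Taf8. The called region of that interval had a total of 83106 and the same maximum of 45.

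The CDK genes of G1 had higher maxima than Ccnd1 and Ccnd2. Cdk4, the partner of the D-type cyclins, lay wholly inside an interval of 14523 bp (chromosome 10, 127057553 to 127072075), which also reached the ends of Tspan31 and Marchf9. Total signal over its called region was 193222, percentile 97.2, and its maximum was 64. At Cdk6, the other partner, the interval was 7486 bp (chromosome 5, 3340489 to 3347974), with a total of 97916 and a maximum of 49. Both thus had wide open regions, at percentiles 98.9 and 93.5 of width. Cdk2, which pairs with E-type cyclins, had 2 intervals, one at each end. The stronger, of 2319 bp with a total of 52487 and a maximum of 76, lay 809 bp below the gene, within 1 kb of Pmel and Rab5b. The interval over the annotated start of Cdk2, of 3227 bp (chromosome 10, 128703863 to 128707089), had a total of 45658 and a maximum of 52. The height of 76, percentile 97.7, therefore does not belong to the start of Cdk2.

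The E-type cyclin genes were alike in height and area. Ccne1 had an interval of 4120 bp (chromosome 7, 38105466 to 38109585) with a total of 50250 and a maximum of 47, and Ccne2 one of 3285 bp (chromosome 4, 11189941 to 11193225) with 56992 and 48. Cdc25a, the phosphatase that activates Cdk2, had a narrower and higher interval of 3004 bp (chromosome 9, 109874733 to 109877736), with a total of 42331 and a maximum of 64, percentile 92.2. Cdc34, a ubiquitin-conjugating enzyme that works with SCF ligases, had the highest total signal of the set, 454788, with a maximum of 75. That region was deposited in 5 pieces and its maximum lay in none of the pieces at Cdc34 but in one 12.1 kb beyond the gene, at Bsg. The pieces at the gene measured 6008 bp over the start (chromosome 10, 79679796 to 79685803) and 10748 bp over the upper end, the latter also within 1 kb of Gzmm.

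In the S phase group the 5 accessible Mcm2-7 genes had uniform and high maxima. Mcm3 had 60, Mcm5 and Mcm7 each 56, Mcm6 had 51 and Mcm4 had 49, all above the median of 38. Apart from Mcm7 their totals lay in a narrow range from 40025 at Mcm5 to 43959 at Mcm3. Widths differed more, from 1470 bp at Mcm3 (chromosome 1, 20819549 to 20821018; percentile 6.15) through 2326 bp at Mcm5 (chromosome 8, 75108290 to 75110615) and 3206 bp at Mcm4 (chromosome 16, 15636173 to 15639378) to 3729 bp at Mcm6 (chromosome 1, 128357081 to 128360809). These 4 genes thus had intervals of nearly equal area and of unequal extent. Mcm7 lay in a called region of 7 pieces with a total of 364361. Its wider gene-end piece, of 8664 bp, was near Cops6, and the piece over its start, of 4474 bp (chromosome 5, 138170120 to 138174593), held the maximum of 56 and also reached Ap4m1.

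Mcm2 was the exception in the helicase. No interval lay within 1 kb of either of its ends (chromosome 6, 88883474 to 88898780) or inside it. The nearest was 3.32 kb beyond its upper end, where the annotated start lies, a piece of 1219 bp at Tpra1 whose region had a total of 46565 and a maximum of 30. In all 9 intervals lay within 50 kb of Mcm2, 3 of them at the ends of other genes. The locus was therefore not bare of open chromatin, although the gene's own start held no interval. With gene-end windows of 2500 bp (50.2% of all genes) Mcm2 still had none and Orc1 gained one, 2.32 kb beyond its upper end, for 41 genes in all. With windows of 500 bp (45.9%) the count was 40.

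The other helicase factors had lower maxima than Mcm3 to Mcm7. Mcm10, which binds the assembled helicase, had the narrowest interval of the set, 1312 bp (chromosome 2, 5012003 to 5013314; percentile 3.47), with a total of 29938 and a maximum of 45. Cdc45, a subunit of the active helicase, had 2655 bp (chromosome 16, 18810975 to 18813629), a total of 39280 and a maximum of 42. The kinase gene Cdc7, which triggers origin firing, had 2923 bp (chromosome 5, 106962546 to 106965468), with 53953 and 35. Mcm10 thus joined Mcm3 in extent, and these were also the only CpG-poor promoters of the 34. Over all genes the width at the start was close in both classes, with medians of 2707.5 bp at CpG-rich and 2625 bp at CpG-poor promoters.

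The loading factors split between one very broad region and several modest ones. Cdc6 had the widest interval of the set, 32692 bp (chromosome 11, 98920583 to 98953274; percentile 99.9), which began inside the gene near its upper end and ran on to Rara, with a total of 450377 and a maximum of 57. At the start of Cdc6 itself lay another interval of 5591 bp with a total of 112921 and a maximum of 41. Cdt1, its partner in loading, had 3203 bp (chromosome 8, 122566455 to 122569657), with 33072 and 34. Gmnn, whose product geminin blocks Cdt1, was similar, with 2237 bp (chromosome 13, 24760192 to 24762428), 29817 and 31. Cdt1 and Gmnn were thus both under the median of all genes in total and maximum signal.

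The origin recognition genes and the sliding clamp spanned the range of heights in the group. Orc6 had a small interval of 1912 bp (chromosome 8, 85298773 to 85300684), with a total of 23382 and a maximum of 32, shared with Vps35. At Orc1 the interval over the annotated start, 2698 bp (chromosome 4, 108578621 to 108581318), had a total of 39891 and a maximum of 60, and also came within 1 kb of Prpf38a. Pcna, the clamp that holds DNA polymerases on their template, had the highest maximum of the S phase group, 66 (percentile 93.2), in an interval of 3617 bp (chromosome 2, 132251880 to 132255496) with a total of 49202. Orc1 therefore matched Mcm3 in height at its start, although it counts as a gene without an interval at its outermost ends.

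The mitotic genes ranged widely in height, from 22 to 67, as did the G1 genes, from 22 to 76. Aurka, the spindle pole kinase, had a maximum of 67 in an interval of 4528 bp (chromosome 2, 172367820 to 172372347), with a total of 75400 over a called region of 2 pieces. Ccnf, an F-box protein, had 62 in 2579 bp (chromosome 17, 24249827 to 24252405) with 36927. At the other end Aurkb, the kinase of the chromosomal passenger complex, had a maximum of 22 and a total of 16875 in 2319 bp (chromosome 11, 69044698 to 69047016; percentile 3.44 of total). The lowest total in the whole list was 15316, so that Aurkb lay close to the threshold of the list. The 2 Aurora kinase genes were thus near opposite ends of the range of this group.

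Cdc20, the activator of the anaphase-promoting complex, had the highest total of the mitotic group, 105151, with a maximum of 57 in an interval of 3302 bp (chromosome 4, 118435660 to 118438961), and that called region had 2 pieces. Plk1, the polo-like kinase, had a low maximum of 24 in 3714 bp (chromosome 7, 122157130 to 122160843), with a total of 31595. Cdk1, the mitotic kinase, had 44 in 1976 bp (chromosome 10, 69351568 to 69353543), with 37201. These kinases were both below the median of all genes in total signal, and only Cdk1 was above it in height.

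Among the A- and B-type cyclin genes Ccna2 stood highest. Ccna2, which acts in S phase and G2, had a maximum of 51 and a total of 25518 in 1972 bp (chromosome 3, 36571083 to 36573054), shared with Bbs7. Ccnb1 had a maximum of 23 and a total of 23838 in 2389 bp (chromosome 13, 100784961 to 100787349). Ccnb2 (chromosome 9, 70407689 to 70421554) had no interval at its ends, in its body or within 50 kb, the only gene of the 44 with none, as were 29.0% of all genes. The 2 mitotic B-type cyclin genes were thus at the low end of the set in these cells' list. Cdc25b and Cdc25c, phosphatases that activate Cdk1, had maxima of 29 and 39 and totals of 51993 and 22791, in 3802 bp (chromosome 2, 131185005 to 131188806) and 2420 bp. All 3 Cdc25 genes had an interval, with the highest maximum at the G1 member Cdc25a and the highest total at Cdc25b.

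**Figure D3:**
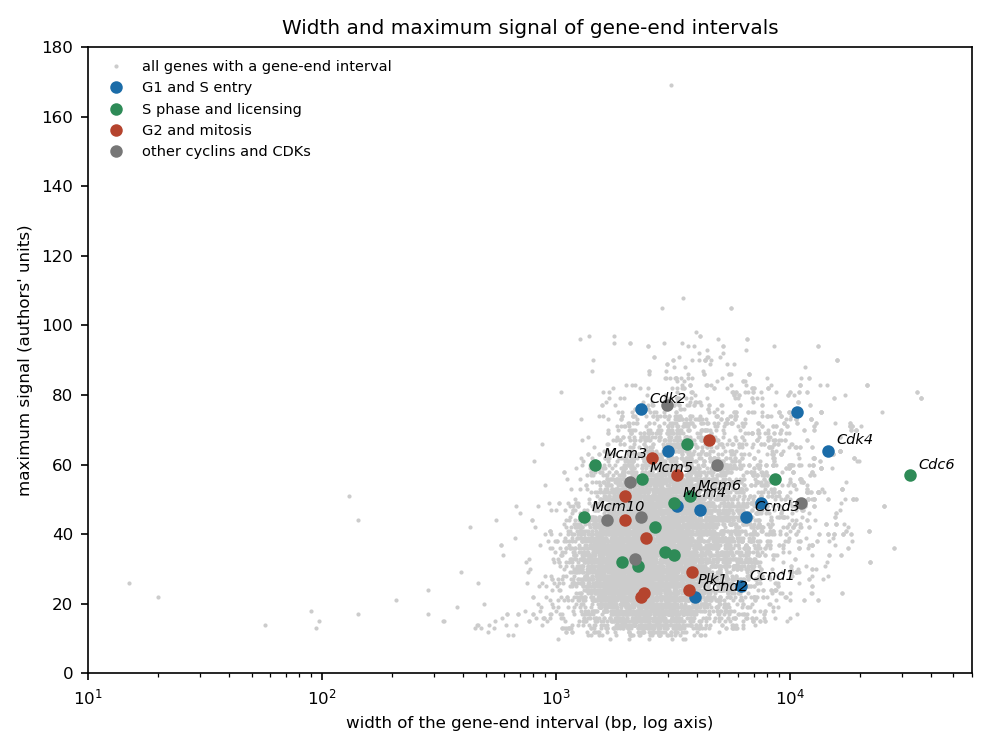
Each point is the gene-end interval of 1 gene, by width in bp (log axis) and maximum signal in the authors' units, with all 10378 protein-coding genes that have one in grey and the 40 cell cycle genes coloured by role. Mcm3 to Mcm6 lie at widths of 1470 to 3729 bp and maxima of 49 to 60, whereas Ccnd1 and Ccnd2 are at 6176 and 3911 bp and maxima of 25 and 22.

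Set side by side, the G1, S phase and mitotic groups had median widths of 5148, 2923 and 2499.5 bp. Median total signals were 54739.5, 40124 and 34261, and median maxima were 48.5, 49 and 41.5. The G1 genes thus led in width and area and were within 1 unit of the S phase genes in height. Their order in total signal was the same with intervals shared with another gene left out (50525.5, 40025 and 34261) and at annotated starts, where the medians were 97916, 40800 and 37201. The order in width did not hold: the mitotic intervals were wider than those of S phase at annotated starts, with medians of 3302 and 2810.5 bp, and with shared intervals left out, with 2499.5 and 2326 bp. Median maxima at annotated starts were 52, 48 and 44, with G1 highest. The values at starts cover 7, 12 and 7 genes, and the cyclin genes Ccnd1, Ccnd2 and Ccne2 are not among them. No test was made of any of these differences.

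The cyclins and CDKs outside the core cycle were as often accessible. Ccng2, an atypical cyclin, had the highest maximum of the 44 genes, 77 (percentile 97.9), in an interval of 2986 bp (chromosome 5, 93266380 to 93269365). Its total of 87705 is that of a called region of 2 pieces, the other 4.95 kb below the gene. Ccng1, a p53 target, had 45 with 26398 in 2312 bp (chromosome 11, 40753633 to 40755944). The called regions of these related genes thus differed in both area and height. Cdk9, the kinase that releases paused RNA polymerase II, had 11142 bp (chromosome 2, 32711102 to 32722243), 133540 and 49, and reached Sh2d3c. Cdk5, known for its role in neurons, had 4860 bp (chromosome 5, 24422774 to 24427633), 106097 and 60, shared with Slc4a2.

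Cdk7 and Ccnh, which together form the CDK-activating kinase, had smaller regions. Cdk7 had 2180 bp (chromosome 13, 100730070 to 100732249), a maximum of 33 and a total of 16755, the lowest of the set. Ccnh had 1653 bp (chromosome 13, 85188758 to 85190410), 44 and 28698. Cdk8, the kinase of the Mediator complex, had 2080 bp (chromosome 5, 146230587 to 146232666), 55 and 34841. Ccna1, by contrast, had a single interval within 50 kb, 38.0 kb away (2406 bp, total 28965, maximum 28). The germline member was thus the one gene of this group with no interval at an end, while all 8 CDK genes of the set had one.

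Where an interval lay at an annotated start, it covered the start, and its maximum mostly lay close by. At 31 of the 34 genes with a promoter entry (91.2%) an interval lay within 1 kb of a start, against 46.9% of all genes with an entry, and at all 31 it covered the start, as it did at 96.3% of all such genes. The position of maximum signal fell within 500 bp of the start at 28 of the 30 genes whose interval held it (93.3%, against 84.1%). The median distance was 85 bp, against 107 bp. The maximum lay before the start at 20 genes and after it at 10 (33.3%), close to the 32% after it over all such genes. Ccnd3 had it 2 bp and Cdc7 5 bp from a start, and the exceptions beyond 500 bp were Cdk6, at 600 bp, and Mcm7, at 558 bp, both after the start. Mcm7, Cdc7 and Ccnd3 have 2 annotated starts, of which the one nearest the middle of the interval was used.

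**Figure D4:**
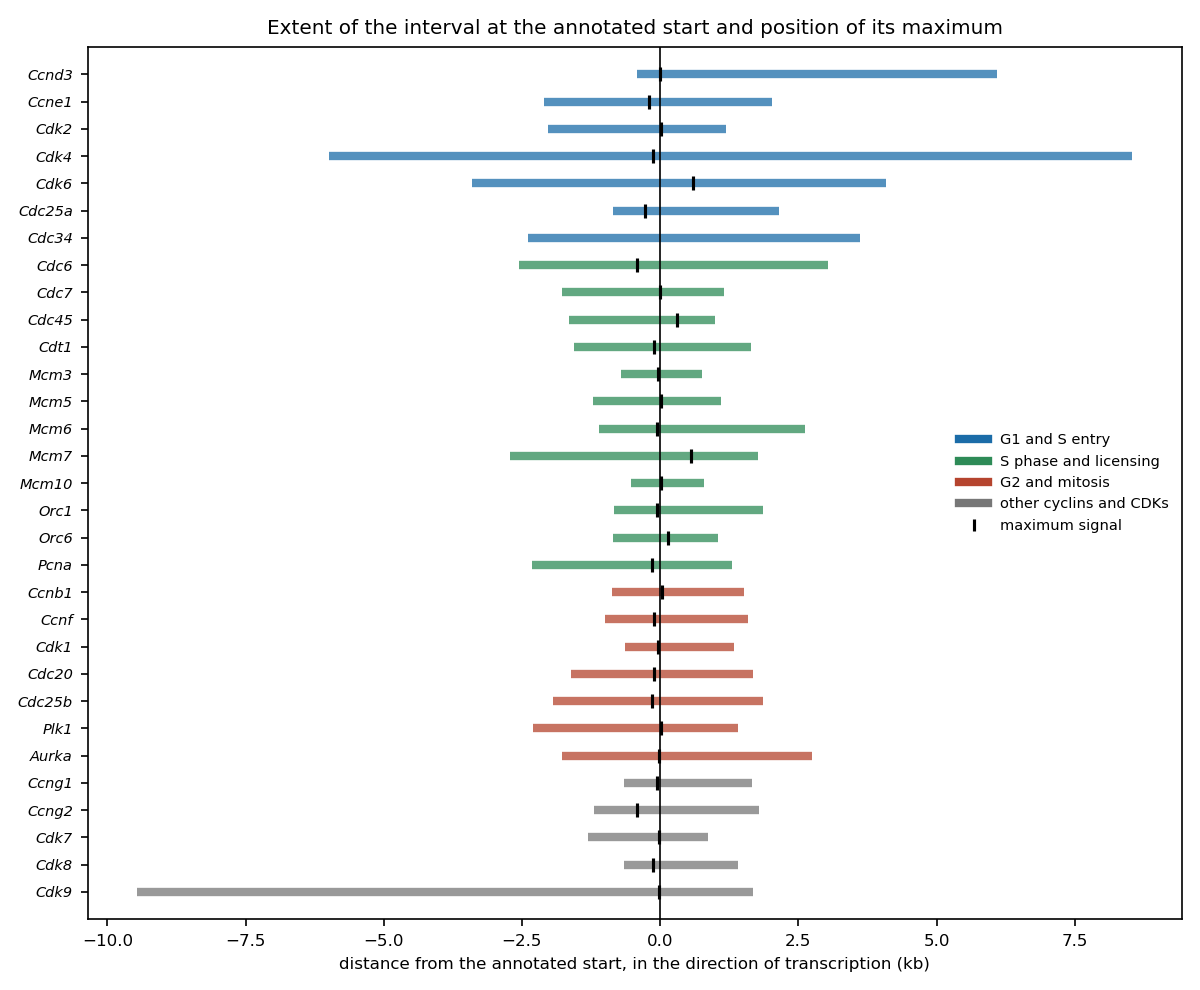
Each bar spans the interval at the annotated start of 1 gene, with distance from the start in kb in the direction of transcription, coloured by role, and the tick marks the maximum signal where the interval holds it. All 31 bars cross the start, most ticks lie close to 0, and Cdk4, Cdk9 and Ccnd3 extend farthest.

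The promoters of the 34 genes were searched for motifs known from cell cycle promoters. Motifs were searched on both strands over the 300 bases of each promoter: E2F as TTTCCCGC, TTTGGCGC, TTTCGCGC or TTTGCCGC, the CHR as TTTGAA, the CCAAT box as its 5 letters, the E-box of Myc as CACGTG and NRF1 as GCGCATGC. The E2F words can overlap each other on opposite strands, as they do at Mcm5 and Mcm6. An E2F word was found at 7 of 13 S phase genes, 2 of 7 G1 genes, 1 of 8 mitotic genes and none of the 6 others, against 3.29% of all genes. A CHR word was found at 6 of 8 mitotic genes, 3 of 13 S phase genes and no G1 gene, against 18.5% of all genes. CCAAT was present at 8 of 8 mitotic and 10 of 13 S phase genes, against 42.3%. At 3 of 7 G1 genes and 3 of 6 others it was near the share of all genes. The E2F word thus fell mostly in the S phase group and the CHR word in the mitotic group, and Ccne1, Cdc34 and Ccng2 held none of the motifs. Restricted to genes with a CpG-rich promoter, the shares of all genes were 5.49% for E2F, 12.8% for CHR and 42.2% for CCAAT.

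**Figure D5:**
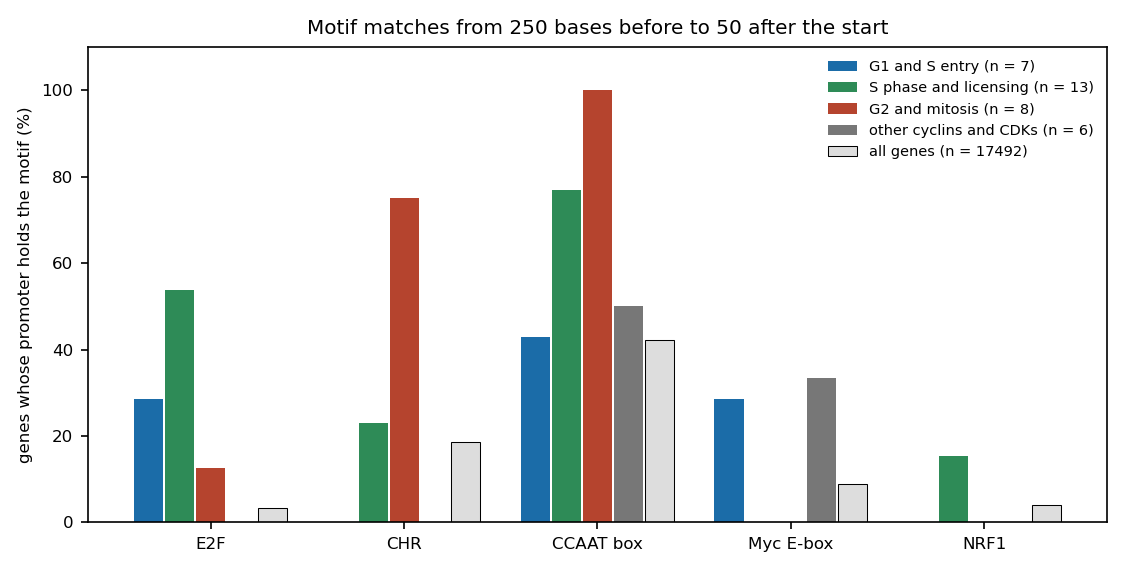
Bars give the percentage of genes in each role group, and of all 17492 genes with a promoter entry, whose promoter holds each motif on either strand. The E2F bar is highest for S phase genes (53.8%) and the CHR bar for mitotic genes (75%), and all 8 mitotic promoters hold CCAAT.

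The sequences below are the 200 bases before the annotated start, 5′ to 3′ along the gene, from RefSeq on build GRCm38.p6, the assembly of mm10. Capitals mark motif matches, and a match on the other strand appears as its reverse complement. The first 5 are the genes whose called region at the start had the highest total or maximum signal in the G1, S phase and mitotic groups. For G1 the region of Cdc34 was highest in both, although its maximum of 75 lies outside the piece at the start.
Cdc34 (chr10:79681995-79682194, plus strand): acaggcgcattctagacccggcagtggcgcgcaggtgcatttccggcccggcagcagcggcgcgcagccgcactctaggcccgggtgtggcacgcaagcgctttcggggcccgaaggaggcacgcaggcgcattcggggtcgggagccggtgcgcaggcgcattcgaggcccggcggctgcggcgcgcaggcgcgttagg
Mcm7 (chr5:138171884-138172083, minus strand): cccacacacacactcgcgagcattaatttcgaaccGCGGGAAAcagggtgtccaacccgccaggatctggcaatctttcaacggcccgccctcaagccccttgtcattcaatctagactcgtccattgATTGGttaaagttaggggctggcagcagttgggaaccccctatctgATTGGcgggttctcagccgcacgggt
Pcna (chr2:132253181-132253380, minus strand): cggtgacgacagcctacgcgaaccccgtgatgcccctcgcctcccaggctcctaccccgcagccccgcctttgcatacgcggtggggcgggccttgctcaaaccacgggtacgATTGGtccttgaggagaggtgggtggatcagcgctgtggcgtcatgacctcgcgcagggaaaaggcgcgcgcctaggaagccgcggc
Cdc20 (chr4:118437344-118437543, minus strand): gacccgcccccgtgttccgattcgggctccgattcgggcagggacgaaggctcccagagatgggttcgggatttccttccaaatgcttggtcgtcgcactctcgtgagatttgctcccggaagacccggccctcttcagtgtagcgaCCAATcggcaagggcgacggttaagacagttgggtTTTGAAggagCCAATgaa
Aurka (chr2:172370571-172370770, minus strand): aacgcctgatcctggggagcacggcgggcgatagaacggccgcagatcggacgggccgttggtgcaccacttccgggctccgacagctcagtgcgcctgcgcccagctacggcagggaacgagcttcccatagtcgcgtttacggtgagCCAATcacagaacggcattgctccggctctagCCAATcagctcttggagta
Cdc34 holds none of the motifs, Mcm7 an E2F word 165 bases before the start, and Cdc20 a CHR word 18 bases before the start between 2 CCAAT boxes. Aurka has 2 CCAAT boxes here and a CHR word 32 bases after the start. The next 4 were chosen after their motifs and values had been seen, to show a promoter of each kind and one with no interval.
Cdk4 (chr10:127063335-127063534, plus strand): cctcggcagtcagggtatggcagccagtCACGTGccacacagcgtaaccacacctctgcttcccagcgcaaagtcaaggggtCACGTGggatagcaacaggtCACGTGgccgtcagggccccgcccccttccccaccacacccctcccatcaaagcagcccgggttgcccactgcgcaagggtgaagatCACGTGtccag
Mcm6 (chr1:128359706-128359905, minus strand): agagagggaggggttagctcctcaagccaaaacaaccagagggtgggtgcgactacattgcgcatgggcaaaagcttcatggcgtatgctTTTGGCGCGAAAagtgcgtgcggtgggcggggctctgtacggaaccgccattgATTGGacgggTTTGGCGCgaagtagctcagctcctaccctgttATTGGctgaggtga
Cdk1 (chr10:69352913-69353112, minus strand): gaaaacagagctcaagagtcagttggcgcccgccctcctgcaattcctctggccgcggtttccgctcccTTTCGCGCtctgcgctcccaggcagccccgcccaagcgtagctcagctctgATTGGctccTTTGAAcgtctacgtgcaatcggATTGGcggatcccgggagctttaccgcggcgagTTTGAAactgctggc
Ccnb2 (chr9:70421555-70421754, minus strand): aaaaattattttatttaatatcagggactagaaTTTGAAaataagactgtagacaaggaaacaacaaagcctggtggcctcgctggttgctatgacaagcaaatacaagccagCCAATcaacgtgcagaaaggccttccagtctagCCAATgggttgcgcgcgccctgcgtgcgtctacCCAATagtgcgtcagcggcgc
Cdk4 has 4 copies of the E-box, 172, 118, 98 and 11 bases before the start, and was one of 4 genes of the set with any (Cdk6, Cdk7 and Cdk8 have 1 each; 8.91% of all genes). Mcm6 has 3 E2F words, 2 of which overlap, and Cdk1 has E2F, CHR and CCAAT together, the only gene of the 34 with all of these. Ccnb2 holds 3 CCAAT boxes and a CHR word before its start, with another CHR word 4 bases after it, and had no interval. Mcm2, also without an interval, holds a CHR word and a CCAAT box, and Ccna1 a CCAAT box. CHR and CCAAT words were thus found at genes with and without an interval.

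Beyond their ends the cell cycle genes had few intervals inside the gene. Intervals in the body and not at an end were found at 8 of 44 genes (18.2%, against 16.6% of all genes), 14 intervals in all. Cdk6 and Cdk8 had 3 each, Ccnd3 and Cdk5 had 2, and Cdc6, Orc1, Cdk2 and Cdk9 had 1. No mitotic gene had any. Not all were separate regions. Those of Cdk2 and Cdk9, 1 of Ccnd3 and 1 of Cdk5 are pieces of a called region that also lies at an end of the same gene. At Cdk6 and at Cdk8, 2 of the 3 are pieces of 1 region. Those of Cdk5 lie within 1 kb of ends of other genes, Abcb8 and Asic3. At Cdk6, a gene of 190005 bp, the body intervals had maxima of 18 to 21, against 49 at its start. The strongest body interval by height was that over the start of Orc1.

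Within 50 kb beyond the gene, 39 of 44 genes had at least 1 further interval (88.6%, against 60.6% of all genes), 142 in all or 3.23 per gene against 2.02. Of these 142, 87 lay within 1 kb of an end of another protein-coding gene, as did 24233 of the 44184 counted over all genes. Cdc34 had the most, 12, followed by Mcm2 with 9 and by Cdk4, Mcm7, Aurkb, Cdk5 and Cdk9 with 8 each. Cdc45, Mcm6, Orc6, Ccnb2 and Ccnh had none. Pieces of 1 called region were counted singly, for these genes as for all genes, so the counts are not of separate regions. At Ccnd1, Cdk4, Cdc34, Cdc6, Mcm7, Cdc20, Aurka and Ccng2 at least 1 flank interval is a piece of a called region that also lies at a gene end. With intervals at other genes' ends left out, the mean was 1.25 per gene against 0.912. The cell cycle genes thus lay among more open intervals than the average gene. Of other protein-coding genes within 5 Mb, the share with a gene-end interval had a median of 57.5% around the 44 genes and 49.5% around all genes. It was 58.0% around the 40 with an interval and 50.3% around the 4 without, and the part of the neighbourhood in the result was not tested.

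Some intervals served more than 1 gene. The gene-end interval was shared with another protein-coding gene at 14 of 40 genes (35.0%), close to the 37.5% of all genes with an interval. They included Cdc45 with Ufd1, Mcm4 with Prkdc, Orc6 with Vps35, Pcna with Cds2, Ccna2 with Bbs7 and Aurka with Cstf1. For these the signal cannot be assigned to one of the 2 genes. The interval counted for Cdk7 is also the one that lies 46.5 kb below Ccnb1. Without shared intervals 30 of the 40 genes still had one, with a median maximum of 44.5 against 36 for all genes.

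Other genes of the same processes also mostly had an interval at a gene end, with widths that differed by list. Of 89 further cell cycle genes, 78 had a gene-end interval (87.6%, against 47.4% of all protein-coding genes). Their median maximum was 46.5 and their median width 2481.5 bp, below the 2772.5 bp of all genes. The genes of licensing and the replisome had a median total of 30765 and a median width of 2202 bp, both under the medians of all genes. The cyclin and CDK partners went the other way, with medians of 48624.5 and 3545.5 bp, both above those of all genes. The spindle and exit genes had medians of 42597 and 2388 bp. By list, an interval lay at 31 of 36 genes of licensing and the replisome and 18 of 21 cyclin and CDK partners. It lay at 29 of 32 genes of the spindle and of mitotic exit. In the first list Rfc5 (164518), Gins1 (91321) and Pold2 (89031) had the highest total signals, and Gins3, Orc4 and Prim1 were the first in the alphabet without an interval. Among the partners Pkmyt1 (127402), Cdk19 (95386) and Cdk12 (82901) led, and Ccnl1, Ccnl2 and Skp2 had none. Among the spindle and exit genes Fzr1 (214191), Anapc1 (116025) and Nek2 (110789) led, and Anapc11, Cdc14a and Cdc16 had none. The intervals counted for Rfc5 and Anapc1 are small pieces of larger regions, of 394 and 855 bp. That of Nek2, of 1944 bp with a maximum of 51, is also too small to hold its total alone. The interval of Pkmyt1 lies beyond the upper end of the gene and is shared with Kremen2 and Paqr4. Those of Rfc5, Gins1 and Pold2 are shared with Wsb2, Abhd12 and Aebp1. For 2 partners of members, chosen after their values were seen, Dbf4, the activator of Cdc7, had a maximum of 64, against 35 at Cdc7, and Mnat1, the third subunit of the CDK-activating kinase, had 29.

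The fibroblast label was checked against markers. An interval lay at a gene end of 11 of 15 fibroblast genes, among them Col1a1, Vim and Prrx1, while Thy1, Pdgfra, Dcn and Lum had none. It lay at 2 of 5 epithelial, 1 of 5 haematopoietic, 0 of 4 endothelial, 1 of 4 pluripotency and 1 of 3 hepatocyte genes. The share over all protein-coding genes was 47.4%. Those with an interval were Krt8, Cldn4, Cd68, Lin28a and Apob, and Epcam, Ptprc, Cdh5, Nanog and Alb were among those without. The interval of Cd68 was shared with Eif4a1 and Mpdu1, and that of Lin28a with Dhdds. The lists are short, so the check is a coarse one. Ezh2 had an interval with a total of 40464 and a maximum of 61. Which part of Ezh2 was deleted is not known here, so that interval does not check the genotype.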

How the data were processed

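ATAC-seq libraries of Ezh2 -/- fibroblasts (2 samples) underlie the 1 list used; groups follow the genotype and treatment labels. The total signal, a score for the area of a region, and the maximum signal were deposited by the authors as whole numbers without a stated normalization, in 6 columns read in SEACR's order, since no header names them. Per the submitters' processing notes, Bowtie2 2.2.9, deepTools, SEACR and mm10 were used; threshold, control, duplicate handling, read shift and the combination of replicates: not given in the sources used here. Of 21835 intervals, 20.5% do not contain their own maximum, so intervals that repeat the same values were treated as pieces of 1 of 19215 called regions, and signal is that of the whole region.

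Gene positions, promoters and strand came from RefSeq tables on GRCm38.p6; all 44 genes matched, 34 with a promoter entry. An interval counted at a gene end where it overlapped the 1000 bp on either side of an end by at least 1 bp, otherwise in the body, otherwise in the flank of 50 kb. The members, role groups and lists were chosen with earlier results of these data known. All members are named; of the other cell cycle genes, the 3 highest by total signal and the first 3 in the alphabet without an interval per list. The plan to rank printed promoters by signal was applied to intervals at the start. No test was run. The alternatives covered other windows, stricter regions, overlap, starts, shared intervals and flanks. Python 3.11.15, numpy 2.4.6, pandas 2.3.3 and matplotlib 3.10.9 were used. The interval lookup was tested on simulated intervals and differed from a plain comparison at 0 of 300 genes.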

Additional observations from a re-analysis of the deposited data

How the results depend on the processing

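No paired analysis was possible because the list holds 1 column per measure for the Ezh2 -/- group and no value per replicate, so replicates could not be left out either. Of 142 recomputed values, 124 stayed within 1.5 times the reported one, and the share of cell cycle genes with a gene-end interval was above that of all genes in the whole set, in each role group and in each further list under every alternative run. With called regions above the median total signal (32.7% of all genes), 6 of 11 mitotic genes (54.5%) and 4 of 8 other cyclins and CDKs (50%) had one. Of the licensing and replisome genes it was 17 of 36 (47.2%). Above the upper quartile (19.6% of all genes) it was 18 of 44 in all (40.9%). By role it was 4 of 15 S phase genes (26.7%), 3 of 11 mitotic genes (27.3%) and 3 of 8 others (37.5%). In the further lists it was 9 of 36 licensing and replisome genes (25%), 10 of 21 partners (47.6%) and 11 of 32 spindle and exit genes (34.4%). Fewer intervals are used there, and the share of all genes also fell, from 47.4% to 19.6% above the upper quartile. The S phase share fell from 86.7% to 26.7% and the licensing and replisome share from 86.1% to 25%. The G1 share fell from 100% to 80%. Without chromosome 5 and chromosome 11 beyond 90 Mb, 4 of 5 other cyclins and CDKs had an interval (45.5% of all genes), with fewer genes counted. The median total signal of G1 genes was 97916 at annotated starts, an alternative added after the data were seen, where 7 genes have an entry. Flank intervals averaged 1.91 per gene (1.02 over all genes) within 25 kb, 5.8 (3.89) within 100 kb and 1.25 (0.912) away from other genes' ends. Depth is unknown, and a gene without an interval may hold signal under the authors' threshold.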
